A study of Mus musculus with 8 samples.

Results

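The regions described here are stretches of accessible chromatin that lie among the olfactory and vomeronasal receptor genes of the mouse. They come from an ATAC-seq study, in which the Tn5 transposase inserts adapters into open DNA, of induced pluripotent stem cells carrying the FUCCI2 cell-cycle reporters. A region was counted as a receptor region if its nearest protein-coding gene, by the outer limits of the gene, was an autosomal Olfr, Vmn1r or Vmn2r gene at a distance of at most 50 kb. This gave 731 of the 74156 autosomal regions (0.986%, 95% Wilson interval 0.917 to 1.06%), out of 76872 regions in all.

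The study had 8 libraries in 4 groups of 2 replicates. The mitotic cells of 0 hours had been held for 6 hours with 200 ng/ml of nocodazole, a drug that blocks spindle assembly, and collected by shake-off. Cells arrested the same way were let out of the drug for 1 or 3 hours, and the asynchronous cells were never given it. Every group was the same clonal line, kept on irradiated feeders with FBS, LIF and 2i, a pair of kinase inhibitors against MEK and GSK3. The files analysed here hold 1 list of positions for the whole series, with neither read counts nor values per library, so the depth is unknown and no region can be assigned to arrested, released or asynchronous cells. A region may therefore have been open in part of the series only, and DNA from feeder cells cannot be told apart from that of the stem cells. Everything below is a description of this list, without a test, since its regions are not replicates. Intervals cover counting error only.

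Olfactory receptors (Olfr) are the odorant receptors of the nasal epithelium, and each olfactory neuron is known for expressing a single allele of a single receptor gene. Vomeronasal receptors of the Vmn1r and Vmn2r families serve the vomeronasal organ and detect pheromones and related cues. The genes sit in long tandem clusters. Outside sensory neurons these clusters are known as silent chromatin, and in olfactory neurons they are packed in heterochromatin with enhancers between the genes. An Olfr or Vmn1r gene has its coding sequence in a single exon, while a Vmn2r gene has several exons and is longer.

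Few receptor genes had a region at or just before an annotated start. RefSeq gives a promoter window for 1258 of the 1452 autosomal receptor genes, from 250 bases before to 50 bases after an annotated start, and 5 of the 1263 windows touched a region (0.396%, interval 0.169 to 0.923%). Of the windows of other protein-coding genes, 11207 of 18822 did (59.5%), and over all windows together 55.8%. A window need not lie at the outermost start of its gene, which is the start used further below. Regions at that start of Vmn1r4 and just before that of Olfr316 touched none of the receptor windows. The 5 windows are shown because they are the receptor windows that a region touched. The region covered the annotated start itself in Vmn2r29 and Olfr9, and ended upstream of it in Olfr373, Olfr94 and Vmn2r129. The sequences are from RefSeq on GRCm38.p6, run 5′ to 3′ in the direction of the gene, and capitals mark the bases covered by the accessible region. Vmn2r29 is at chr7:7278240-7278539 on the minus strand, Vmn2r129 at chr4:156330853-156331152 on the plus strand and Olfr9 at chr10:128989664-128989963 on the plus strand. Olfr373 is at chr8:72099512-72099811 on the plus strand and Olfr94 at chr17:37197917-37198216 on the minus strand.
Vmn2r29: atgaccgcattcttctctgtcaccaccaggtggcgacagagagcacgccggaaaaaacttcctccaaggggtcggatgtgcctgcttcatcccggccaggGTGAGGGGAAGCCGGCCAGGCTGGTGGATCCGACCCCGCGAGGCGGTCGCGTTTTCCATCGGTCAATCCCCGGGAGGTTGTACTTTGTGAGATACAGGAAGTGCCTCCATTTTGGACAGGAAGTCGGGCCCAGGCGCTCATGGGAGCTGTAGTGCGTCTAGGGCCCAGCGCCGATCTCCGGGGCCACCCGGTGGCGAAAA
Vmn2r129: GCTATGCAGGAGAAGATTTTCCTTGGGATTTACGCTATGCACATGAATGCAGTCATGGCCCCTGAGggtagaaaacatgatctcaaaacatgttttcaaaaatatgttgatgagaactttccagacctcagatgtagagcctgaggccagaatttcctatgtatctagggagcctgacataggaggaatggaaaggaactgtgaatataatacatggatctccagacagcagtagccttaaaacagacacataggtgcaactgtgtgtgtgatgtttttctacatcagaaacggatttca
Olfr9: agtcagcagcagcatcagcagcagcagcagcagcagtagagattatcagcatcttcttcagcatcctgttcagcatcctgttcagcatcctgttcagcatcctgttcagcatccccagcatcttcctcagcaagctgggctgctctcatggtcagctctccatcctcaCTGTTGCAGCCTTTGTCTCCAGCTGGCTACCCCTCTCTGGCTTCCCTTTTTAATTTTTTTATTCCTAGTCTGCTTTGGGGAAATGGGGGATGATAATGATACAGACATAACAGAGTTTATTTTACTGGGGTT
Olfr373: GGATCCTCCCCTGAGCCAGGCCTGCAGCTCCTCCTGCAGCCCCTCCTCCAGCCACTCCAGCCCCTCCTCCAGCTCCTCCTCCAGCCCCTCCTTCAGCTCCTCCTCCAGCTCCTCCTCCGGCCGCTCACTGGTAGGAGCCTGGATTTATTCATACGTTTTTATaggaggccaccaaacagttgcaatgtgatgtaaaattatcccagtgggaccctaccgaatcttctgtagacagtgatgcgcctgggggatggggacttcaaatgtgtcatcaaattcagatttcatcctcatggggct
Olfr94: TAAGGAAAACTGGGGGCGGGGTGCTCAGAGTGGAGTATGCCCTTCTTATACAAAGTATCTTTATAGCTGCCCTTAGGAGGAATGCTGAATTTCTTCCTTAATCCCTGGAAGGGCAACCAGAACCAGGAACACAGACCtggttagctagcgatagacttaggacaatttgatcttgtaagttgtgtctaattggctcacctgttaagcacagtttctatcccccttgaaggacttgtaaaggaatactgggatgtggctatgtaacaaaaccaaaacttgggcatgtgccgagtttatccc

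The 5 windows differed in make-up and in how the region lay on them. In Vmn2r29 a region of 931 bp, chr7:7277509-7278439, covered 200 bases of the window and the annotated start itself. That window held 23 CG dinucleotides, the highest number in any receptor window, at 62.3% G and C. In Olfr9 a region of 494 bp covered the start and 132 bases of a window without a CG. In Olfr373 a region of 408 bp covered 162 bases and ended 89 bp before the gene. Olfr94 had a region of 189 bp over 137 bases, and Vmn2r129 a region of 598 bp that overlapped only the first 66 bases of the window. The windows of Olfr373 and Olfr94 held the TATA box sequence TATAAA, as did 501 of all 1263 receptor windows (39.7%) and 2052 of the 18822 windows of other genes (10.9%), on either strand. The GC box GGGCGG, a site type of Sp and Klf factors, was in the Olfr94 window alone among the 5, in 10 receptor windows (0.792%) and in 9437 windows of other genes (50.1%).

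Receptor windows as a whole were poor in CG. They held a median of 1 CG (quartiles 0 and 2, range 0 to 23), against 15 in windows of other genes (quartiles 5 and 26, range 0 to 67). No CG at all was found in 393 receptor windows (31.1%) and in 491 windows of other genes (2.61%). The homeodomain core TAATTA was in 211 receptor windows (16.7%) and 688 others (3.66%), and the octamer ATGCAAAT in 35 (2.77%) and 301 (1.60%). The core of sites for the EBF factors of olfactory neurons, TCCC and GGGA with any 2 bases between, was in 5 receptor windows (0.396%) and 192 others (1.02%). The YY1 core GCCATCTT was in 11 (0.871%) and 603 (3.20%). None of these 4 sequences was in the 5 windows with a region, which says only that these letters are absent there. Many receptor gene models begin at the coding sequence: the start was followed directly by ATG in 961 receptor windows (76.1%), among them Olfr9, Olfr373 and Olfr94, and in 576 windows of other genes (3.06%). For such models the true start of transcription may lie farther upstream, outside the window.

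Counting both outer limits of each gene gave the same contrast. A region lay within 1 kb of an end of 39 of the 1452 receptor genes (2.69%, interval 1.97 to 3.65%) and of 13079 of the 19108 other autosomal protein-coding genes (68.4%, interval 67.8 to 69.1%), with 63.8% over all autosomal protein-coding genes. By family the counts were 32 of 1103 Olfr genes (2.90%), 4 of 228 Vmn1r genes (1.75%) and 3 of 121 Vmn2r genes (2.48%). The intervals of the 3 families overlapped widely. Olfr and Vmn1r genes are short, with median lengths of 0.951 and 0.924 kb, while Vmn2r genes had a median of 24.7 kb and other genes one of 19.6 kb. Among genes of at most 5 kb, an end region was found for 31 of 1247 receptor genes (2.49%), against 1755 of 3265 other genes (53.8%). Inside the receptor clusters defined below lie 241 other protein-coding genes, and 131 of these had an end region (54.4%, interval 48.0 to 60.5%).

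**Figure D1:**
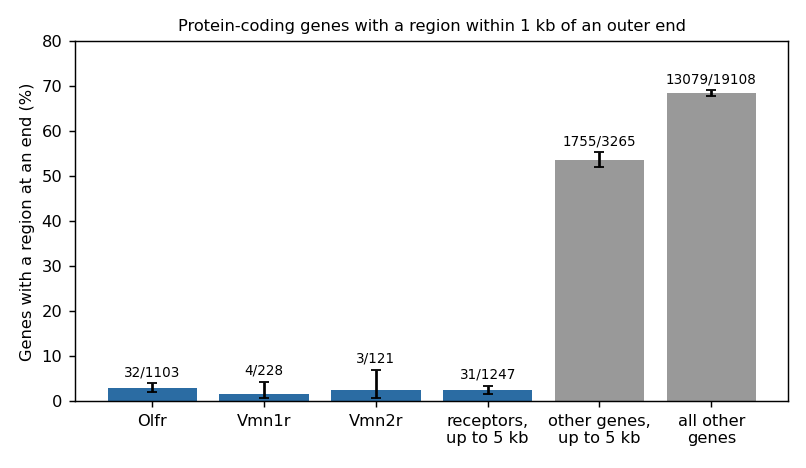
Share of genes with a region within 1 kb of an outer end, in percent, for the receptor families, receptor genes of at most 5 kb (blue) and other autosomal protein-coding genes (grey); bars are shares with 95% Wilson intervals and the numbers are counts. The 3 families lie between 1.75% and 2.90%, while other genes of at most 5 kb reach 53.8%.

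The 39 genes had 43 regions at their ends, of which 20 touched the gene. They were 76 to 1827 bp wide, with a median of 311 bp (quartiles 153 and 476 bp), against 526 bp for regions at ends of other genes (quartiles 272 and 791 bp). The strand was known for 35 of the 39 genes. Of these, 8 had a region at the outermost start alone, 16 at the far end alone and 11 at both, mostly because 1 region inside a gene of about 1 kb was within reach of both limits. Regions over the body of a short gene were found at Olfr15, Olfr38, Olfr95, Olfr304, Olfr452, Olfr543, Olfr545, Olfr763, Olfr982 and Olfr94. That in Olfr304 was 369 bp wide and lay 433 to 801 bp into the gene, and that in Olfr15, chr16:3839363-3839704, was 342 bp wide. Olfr94 had 3 end regions, of 390, 496 and 189 bp. The first of them was nearer to Ubd, which encodes a ubiquitin-like protein, and so was not a receptor region.

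Several of the regions lay beyond the far end of the gene. These were found at Olfr52, Olfr113, Olfr506, Olfr750, Olfr1166, Olfr1238, Olfr1373, Olfr1382, Olfr1388, Vmn1r48, Vmn1r83 and Vmn1r208, as second regions at Olfr38 and Olfr543, and also at Olfr286, a longer model of 7776 bp with a region of 792 bp, 221 bp past its far end. Olfr1382 and Olfr1388, members of the same chromosome 11 cluster, each had such a region at nearly the same place, 1389 to 1660 bp and 1390 to 1711 bp from the start. At Vmn1r48 the region was 1827 bp wide, the widest of all receptor regions, at chr6:90033432-90035258 and 675 bp from the gene. Olfr27 and Olfr316 had a region upstream of the start, of 304 bp at 507 bp and of 94 bp at 195 bp from the gene. Olfr1342, Olfr1393, Olfr20 and Olfr544 had a region of 219, 115, 80 and 414 bp within the gene near an end. In Vmn2r90 a region of 156 bp touched the gene near its far end, 29404 bp from the start. The strand was not known for Olfr294, Olfr376, Olfr658 and Olfr905, whose end regions were 877, 141, 597 and 196 bp wide. At Vmn1r4 the region of 928 bp covered the outermost start. It touched both that gene and Nt5c3, which encodes a nucleotidase, and was assigned to Nt5c3. The end genes included 6 pairs of neighbours, each pair within the same cluster. The pairs were Olfr9 and Olfr763, Olfr20 and Olfr376, Olfr94 and Olfr95, Olfr38 and Olfr452, Olfr543 and Olfr544, and Olfr544 and Olfr545. Their number was not set against that of all neighbouring receptor genes.

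**Figure D2:**
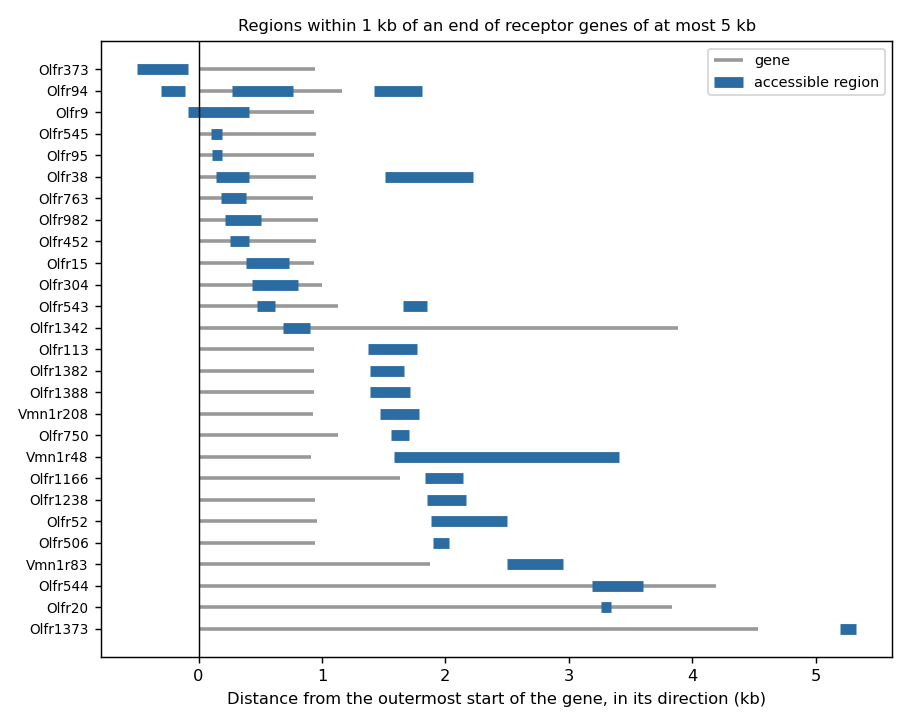
Regions within 1 kb of an end (blue) along the 27 receptor genes of at most 5 kb with a known strand (grey lines), in kb from the outermost start in the direction of the gene. Regions reaching upstream of the start are seen at Olfr373, Olfr94 and Olfr9, and most others lie over the gene or beyond its far end.

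Receptor regions were thus mostly away from the genes they were assigned to. Of the 731, 60 touched a receptor gene (8.21%, interval 6.43 to 10.4%), while 40180 of the 73425 other autosomal regions (54.7%) touched a protein-coding gene, and 54.3% of all autosomal regions did. Within 1 kb of a gene end lay 41 receptor regions (5.61%) and 15229 of the others (20.7%), with 20.6% over all autosomal regions. The median distance to the nearest gene was 9.22 kb (quartiles 4.02 and 16.8 kb). Of the regions that did not touch the gene, 45 lay within 2 kb of it, 301 at 2 to 10 kb, 239 at 10 to 25 kb and 86 at 25 to 50 kb. At the limit of the rule, the 3 farthest receptor regions lay 49.5, 49.6 and 49.7 kb from Vmn1r223, Vmn2r96 and Vmn1r234, and the 3 nearest regions left out lay 50.03, 50.8 and 52.3 kb from Vmn1r66, Olfr444 and Vmn1r72. In all, 109 regions with a receptor gene as their nearest were left out for distance.

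Over all clusters together, the share of receptor regions that touched a receptor gene was near the share of the length that these genes occupy. By type of cluster the 2 shares differed more. Receptor gene bodies made up 9.98% of the length of the clusters defined below, and 59 of the 639 receptor regions inside those clusters touched one (9.23%, interval 7.23 to 11.7%). The denominators differ, because the length includes stretches nearest to other genes, where by the rule no receptor region could lie. These shares, and those by cluster type below, are thus not strictly comparable. In clusters of Olfr genes alone the genes took 7.19% of the length and were touched by 23 of 329 regions (6.99%). In clusters of Vmn1r genes alone they took 3.54% and were touched by 1 of 65 (1.54%), and in clusters of Vmn2r genes alone they took 24.1% and were touched by 22 of 74 (29.7%). In mixed clusters they took 11.2% and were touched by 13 of 171 (7.60%). Over the autosomes, protein-coding gene bodies took 40.9% of the span between the outermost genes or regions.

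Receptor regions and the rest of the atlas had similar widths. The median was 261 bp (quartiles 138 and 483 bp, range 73 to 1827 bp) for receptor regions and 281 bp (152 and 497 bp, range 73 to 3218 bp) for the other autosomal regions. At the minimum width of 73 bp were 29 receptor regions (3.97%) and 2908 others (3.96%). A width of 1000 bp or more was reached by 17 receptor regions (2.33%, interval 1.46 to 3.69%) and 2755 others (3.75%, interval 3.62 to 3.89%). Away from gene ends the medians were 258 bp for receptor regions and 246 bp for others. The families had medians of 272 bp (Olfr, n = 423 regions), 260 bp (Vmn1r, n = 156) and 220 bp (Vmn2r, n = 152). By distance from a gene not touched, the median was 304 bp within 2 kb, 258 bp at 2 to 10 kb, 256 bp at 10 to 25 kb and 265 bp at 25 to 50 kb.

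**Figure D3:**
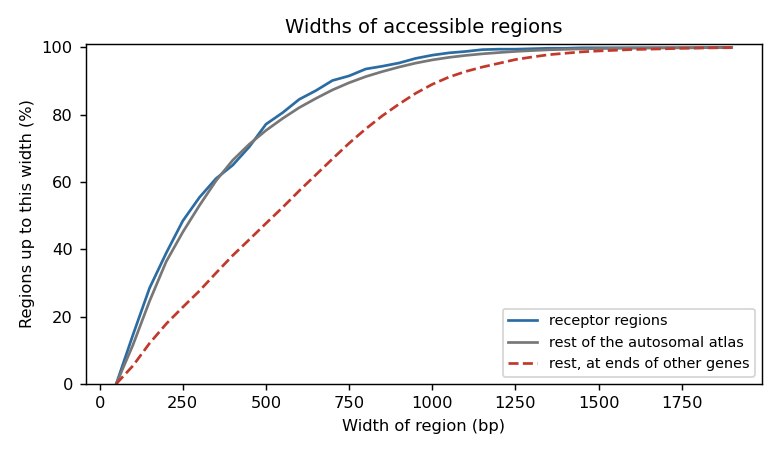
Cumulative share of regions (percent) by width (bp) for receptor regions, for the rest of the autosomal atlas and for those of the rest at gene ends. The curves of receptor regions and of the rest run close together, with 77.2% and 75.3% of regions up to 500 bp, and that of regions at ends of other genes runs below both, with 47.7%.

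After the 1827 bp region at Vmn1r48, the widest receptor regions all lay inside clusters and between genes. A region of 1433 bp at chr16:59177183-59178615 lay 5.07 kb from Olfr196, and one of 1337 bp at chr7:108026239-108027575 lay 3.72 kb from Olfr478. The next, of 1262 bp at chr17:17739225-17740486, lay 5.06 kb from Vmn2r90. Those of 1198, 1136 and 1126 bp lay 21.0, 9.05 and 7.37 kb from Olfr726, Olfr875 and Olfr924. Those of 1112, 1101 and 1093 bp lay 3.15, 5.64 and 6.30 kb from Olfr697, Vmn1r56 and Olfr585. For each of these 10 regions the receptor gene was also the nearest gene of any type. Over all receptor regions this held for 472 (64.6%), while a pseudogene was nearest to 203 (27.8%), 57 of them with a receptor symbol, and a lncRNA gene to 41 (5.61%). A pseudogene was touched by 35 regions and a lncRNA gene by 25. These counts by genes of any type were not made for the other autosomal regions, so they have no comparison here.

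For the description by cluster, receptor genes of any of the 3 families at most 500 kb apart on a chromosome were joined, with other genes allowed between. This gave 57 clusters with 1436 genes over 55.5 Mb, 2.31% of the autosomal span, and 16 receptor genes on their own. Inside the outer limits of a cluster lay 639 receptor regions (87.4%, interval 84.8 to 89.6%), at its edge 61 (8.34%) and at genes on their own 31 (4.24%). This division depends largely on the rules, since every region was chosen within 50 kb of a receptor gene and 1436 of the 1452 genes are in clusters. With genes joined over at most 100 kb, 71.3% of the receptor regions lay inside a cluster. The clusters contained 25.9 receptor genes per Mb, against 8.56 protein-coding genes per Mb of the autosomal span, but 11.5 receptor regions per Mb. Regions of any kind inside them numbered 1098, or 19.8 per Mb, against 31.1 per Mb on the rest of the autosomes. Of the 1452 receptor genes, 467 (32.2%) were the nearest gene of at least 1 receptor region.

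The families shared the regions unevenly. Olfr genes made up 76.0% of the receptor genes and were nearest to 423 regions (57.9%). The Vmn1r genes, 15.7% of the genes, were nearest to 156 (21.3%), and the longer Vmn2r genes, 8.33% of the genes, to 152 (20.8%). At least 1 region was nearest to 300 of 1103 Olfr genes (27.2%), 86 of 228 Vmn1r genes (37.7%) and 81 of 121 Vmn2r genes (66.9%). Per length the order was different. Clusters of Olfr genes alone held 12.6 receptor regions per Mb, those of Vmn1r genes alone 9.74, those of Vmn2r genes alone 10.9 and mixed clusters 10.7.

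The largest cluster, 222 Olfr genes from Olfr987 to Olfr1274 at chr2:85330967-90401674, had the most receptor regions, with 59 inside and 1 at its edge, or 11.6 per Mb. Next came Olfr160 to Olfr986 on chromosome 9 with 37 for 95 genes and Olfr9 to Vmn2r87 on chromosome 10 with 35 for 62 genes. The cluster from Olfr543 to Olfr692 on chromosome 7 holds the class I receptors, the group resembling those of fish, together with the beta-globin genes and a set of Trim genes. It had 34 receptor regions for 126 genes, and 4 of its genes had an end region. The cluster from Vmn2r90 to Vmn1r237 on chromosome 17 had 32, that from Olfr24 to Olfr18 on chromosome 9 had 30 and that from Olfr291 to Vmn2r79 on chromosome 7 had 27. With 25 each followed Olfr467 to Olfr519 on chromosome 7 and Olfr1370 to Vmn1r223 on chromosome 13, and with 24 each Vmn1r91 to Vmn1r183 on chromosome 7 and Olfr90 to Olfr136 on chromosome 17. The 10 clusters with the most had 329 of the 731 regions, and the median cluster had 9. Olfr462 to Olfr464, with 3 genes, was the cluster without any. Over the 57 clusters the count inside ranked with the length of the cluster (Spearman rho = 0.906) and with its number of receptor genes (rho = 0.856), as a description.

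**Figure D4:**
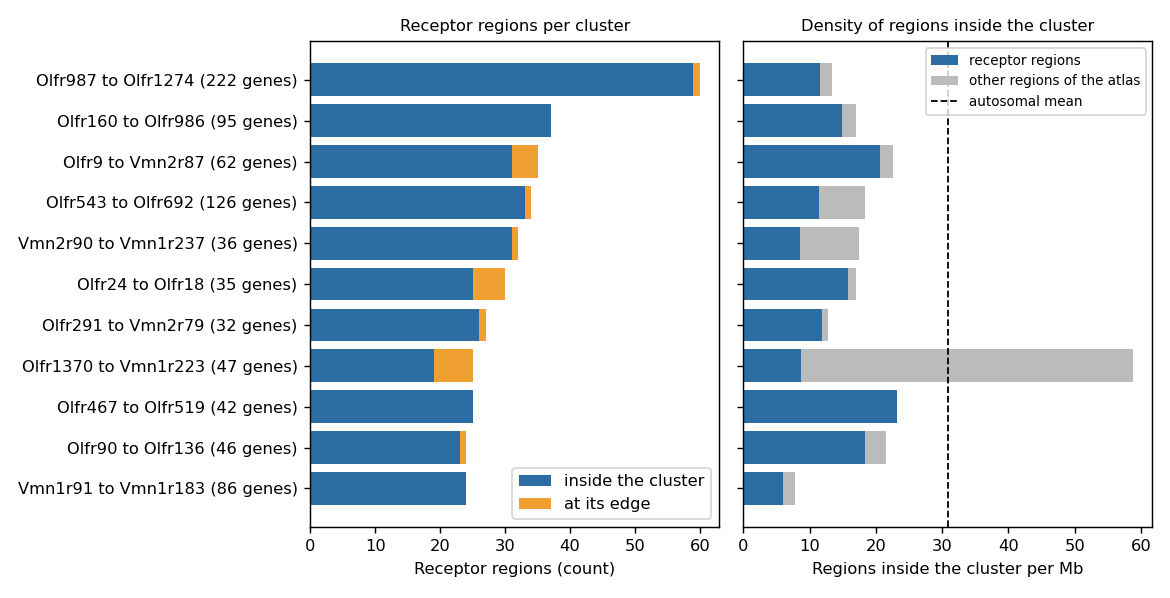
The 11 clusters with the most receptor regions, named by their first and last receptor gene. Left, counts inside the cluster and at its edge; right, receptor regions and other regions of the atlas inside the cluster per Mb, with the autosomal mean of 30.9 per Mb as a dashed line. The cluster from Olfr1370 to Vmn1r223 passes the line, at 58.8 per Mb, of which receptor regions make up 8.72 per Mb.

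Density varied between clusters. Among the 31 clusters of at least 0.5 Mb, receptor regions inside ranged from 6.07 to 23.3 per Mb, with a median of 11.6. The highest were Vmn1r40 to Vmn1r54 on chromosome 6, with 23.3, and Olfr467 to Olfr519, with 23.2 in a cluster without any other protein-coding gene. Of the 23 clusters with 20 or more receptor genes, the sparsest was Vmn1r91 to Vmn1r183, at chr7:20101158-24055691, with 6.07 receptor regions per Mb and 7.84 regions of any kind per Mb. It was followed by Olfr722 to Vmn2r89 on chromosome 14 (6.38), Olfr458 to Olfr47 on chromosome 6 (6.44), Olfr1417 to Olfr1505 on chromosome 19 (6.69) and Olfr172 to Olfr209 on chromosome 16 (8.30). Regions of any kind numbered 26.2, 12.9, 20.6 and 8.30 per Mb there, in the same order, against 19.8 per Mb inside all clusters. The clusters from Olfr722 and from Olfr1417, with 24 and 12 other protein-coding genes, were thus sparse in receptor regions only. By the rule, a region nearest to another gene is not a receptor region. Many receptor genes have close copies nearby, and no source used here says how reads that map to several places were treated. The part of such reads in the low densities was not tested.

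Clusters with other genes held more regions of any kind per length, but fewer receptor regions. The 34 clusters with at least 1 other protein-coding gene held 967 regions, or 20.3 per Mb, and the 23 clusters without held 131, or 16.4 per Mb. In 3 of the 31 long clusters the density of all regions was above the autosomal mean of 30.9 per Mb. These were Olfr1370 to Vmn1r223, with 58.8 per Mb and 38 other genes, Vmn1r72 to Vmn1r89 on chromosome 7, with 38.7 and 19, and Vmn1r55 to Olfr1350 on chromosome 7, with 30.9 and 12. The last of them lay practically at the mean (30.89 against 30.87 per Mb). In the first, 109 of 128 regions were not receptor regions, among them 21 nearest to the zinc finger gene Zfp184, 13 to Trim27 and 10 to the histone gene H4bc24. Over all clusters, 444 regions were nearest to another gene. Their median width was 359 bp and 144 of them (32.4%) lay at a gene end. In the class I cluster such regions included 3 each nearest to Trim12a, Trim6 and Trim30d, and 1 each nearest to the beta-globin genes Hbb-bt and Hbb-y.

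Region density was higher outside the limits of the clusters than inside. For the 35 clusters with at least 5 genes and 0.4 Mb, the 50 kb just inside their 70 limits held 80 regions, or 22.9 per Mb, 75 of them receptor regions. The next 50 kb inward held 18.9 per Mb. The first 50 kb outside held 143 regions, or 40.9 per Mb, 41 of them receptor regions, and the next 3 steps of 50 kb outward held 57.1, 44.3 and 50.9 per Mb. The split between receptor and other regions near the limits follows largely from the rule. Each limit is an end of a receptor gene, and no receptor region can lie more than 50 kb outside it. A region was present in 58.6% of the 50 kb windows just inside and in 72.9% of those just outside, and in 90% of those 50 to 100 kb outside. Farther inside, at 150 to 200 kb, the density was 30.3 per Mb, of which receptor regions made up 12.9 per Mb.

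**Figure D5:**
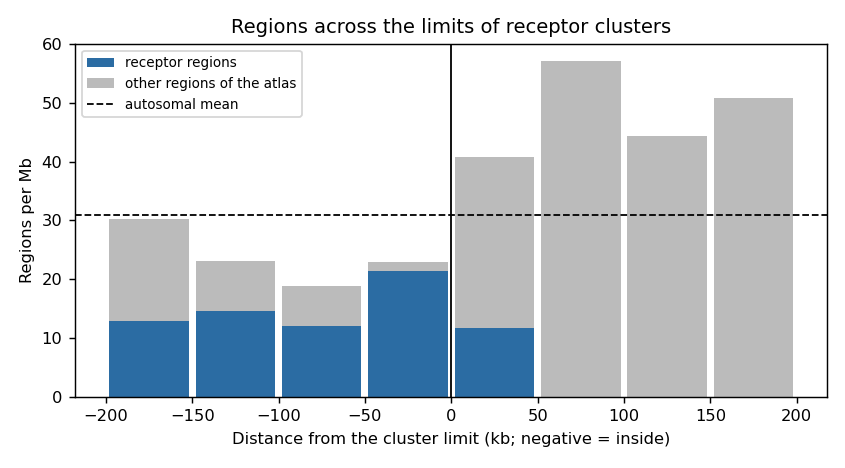
Regions per Mb in steps of 50 kb across the 70 limits of 35 receptor clusters, with negative distances inside; receptor regions in blue, other regions of the atlas in grey, autosomal mean dashed. Inside, the steps lie between 18.9 and 30.3 per Mb, and outside between 40.9 and 57.1 per Mb. By the rule, no receptor region can lie more than 50 kb outside.

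Of the 61 edge regions, several shared a gene. The outermost gene Vmn1r223 of the chromosome 13 cluster had 6, from 86 to 872 bp wide and 19.9 to 49.5 kb from it, of which 5 touched the lncRNA gene 4930557F10Rik and 1 a tRNA gene. Olfr24 on chromosome 9 had 5, of 204 to 841 bp, and 2 more inside the cluster. Olfr1350 and Vmn1r39 had 4 each. Olfr9, at the limit of its cluster, had 3 edge regions, counting the one over its start. The other two, of 158 and 919 bp, lay 12.1 and 8.25 kb from it, with the lncRNA gene 9030616G12Rik as their nearest gene of any type.

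Regions per gene were otherwise low. Of the 467 genes with a receptor region, 295 had 1, 122 had 2 and 50 had more. The highest counts were 10 for Vmn1r238, 7 each for Olfr24 and Vmn2r129, and 6 each for Vmn1r2, Vmn1r77, Vmn1r223 and Vmn2r90. Vmn1r238 is on its own near the start of the assembled chromosome 18, and 8 of its regions formed a chain over 5.78 kb, at chr18:3113417-3119193, with gaps of at most 1 kb. They were 73 to 537 bp wide and did not touch the gene. Vmn2r129, also on its own, had a chain of 5 narrow regions of 86 to 185 bp over 1.78 kb, between the gene and the pseudogene Vmn2r125. A chain of 4 regions over 2.63 kb lay inside a cluster, 27.1 to 29.4 kb from Vmn1r77, its nearest protein-coding gene. The pseudogene Vmn1r-ps60 was nearer, at 5.93 to 8.42 kb. No other chain of 4 or more was found. Another region of the atlas lay within 1 kb of 137 receptor regions (18.7%) and of 17168 of the others (23.4%), and 21 receptor regions (2.87%) lay in 100 kb windows with 10 or more regions, against 14111 of the others (19.2%). Of the 31 regions at genes on their own, 17 were those of Vmn1r238 and Vmn2r129.

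Genes that act with the receptors were counted the same way. Of 26 genes of olfactory signalling and receptor choice, 16 had a region at an end (61.5%, interval 42.5 to 77.6%). This is near the 63.8% over all autosomal protein-coding genes, a set that does not hold Cnga2 of this list or Atrx and Suv39h1 of the heterochromatin list, which are on X. Among them were Lhx2, the homeodomain factor of olfactory receptor enhancers, Ebf1, Adcy3, the cyclase of olfactory cilia, Gnal, its G protein subunit, and Kdm1a, a histone demethylase. Cnga4, which encodes a channel subunit, and Reep1, which encodes a receptor transport protein, also had an end region. The others with one were Atf5, Bcl11b, Ebf2, Ebf4, Eif2ak3, Emx2, Lbr, Ric8b and Tshz1. Without were Omp, the marker protein of mature olfactory neurons, which had no region within 50 kb nearest to it, and Cnga2, Cngb1, Ano2, Stoml3, Rtp1 and Rtp2, which encode channel, membrane and receptor transport proteins, as well as Ebf3 and Gng13. Ldb1, the cofactor of Lhx2, had none at an end but 3 regions nearest to it, of up to 1172 bp. Of 6 vomeronasal genes, 4 had an end region, namely Gnai2, Gnao1, Gng8 and Meis2, while Trpc2, the channel of vomeronasal neurons, and Tfap2e had no region nearest to them within 50 kb. All 11 heterochromatin genes had an end region, among them Cbx1, Cbx3 and Cbx5, which encode HP1 proteins, and Setdb1 and Ehmt2, which encode histone H3 lysine 9 methyltransferases. Of genes in other chemoreceptor families, an end region was found for 7 of 82 (8.54%, interval 4.20 to 16.6%). They were taken by symbol from the Taar, Fpr, Ms4a, Tas1r and Tas2r families, with Gucy2d, and not every member is known as a chemoreceptor. Those with an end region are named next. They were Taar2, the taste receptor genes Tas1r1, Tas1r2 and Tas1r3, and Ms4a4d, Ms4a5 and Ms4a14.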

How the data were processed

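ATAC-seq was done by the authors on 8 libraries of mouse pluripotent stem cells in 4 groups, from 50000 cells each per the labels' protocols. The authors deposited 1 list for the series with chromosome, start and end of each region in base pairs, on GRCm38 (mm10). Per the submitters' processing notes, MACS2 2.1.1, bedtools, SAMtools, Picard, Bowtie2 and cutadapt were used. No source used here gives their settings, the shift for Tn5, the handling of repeated reads or of blacklisted regions, or how libraries were merged. The labelled molecule is total RNA, against the titles and protocol, which were followed. They do not say whether replicates were separate cultures.

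Regions were set against the outer limits of genes and the promoter windows of RefSeq for GRCm38.p6, with positions counted from 1, in Python 3.11.15 with pandas 2.3.3, numpy 2.4.6 and scipy 1.17.1. A distance of 0 means touching. A cluster joined receptor genes at most 500 kb apart. Inside means wholly within its outer limits. The 4 receptor genes listed below 3 Mb of a chromosome lie on separate scaffolds and were left out. Shares have 95% Wilson intervals. The overlap code was tested on simulated data, 40 random sets, with 0 disagreements with a direct count. No sample entered a comparison, and the planned tests between groups were not made. Members and lists were chosen with earlier results of these data known. Named were all receptor genes with an end region, the genes at the 10 widest regions, at the limit of the rule and with most regions, the clusters with the most regions, and the 5 sparsest of those with 20 or more genes. That minimum, the edge genes, the chains, the dense clusters and the other genes named inside clusters were chosen after values were seen. Alternatives changed the distance, the genes considered, the width of regions, the joining of clusters and the end window.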

Additional observations from a re-analysis of the deposited data

How the results depend on the processing

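No paired analysis was possible because the list holds no value per library, so no replicate could be left out either. Of 49 alternatives, 26 stayed within the 95% interval of the reported value, or within 1.5 times a count, and 23 moved. With a distance of at most 10 kb there were 406 receptor regions, of which 89.7% lay inside a cluster, 14.8% touched a receptor gene and 10.1% lay at a receptor gene end. With 100 kb, 83.5% lay inside. With genes of every type considered, 11.5% touched a receptor gene or pseudogene. Among regions at or above the median width of 280 bp there were 343 receptor regions with a median of 494 bp, 5.47 per Mb of cluster, and 1.58% of receptor genes had one at an end. Clusters joined over at most 100 kb held 71.3% of the receptor regions, at 13.3 per Mb, and 91.1% of regions inside were receptor regions. Joined over 1000 kb the last 2 values were 10.6 per Mb and 49.7%. Runs without other genes between held 77.8%, at 13.3 per Mb, and 97.4% of regions inside. Receptor genes with an end region were 1.65% with end windows of 0.5 kb, 4.55% with 2 kb and, of those with a known strand, 1.51% with the outermost start only. Receptor regions at such ends were 3.28% and 9.71% with 0.5 and 2 kb. Depth is unknown, so a place without a region may have been too shallowly covered.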

Other observations

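The 7 receptor genes on the X chromosome were outside the description above. They were the nearest protein-coding gene, within 50 kb, of 8 of the 2545 regions on X, and none of the 7 had a region within 1 kb of an end. Olfr1323 and Olfr1325 each had 2 regions, and Olfr1320, Olfr1321, Olfr1322 and Vmn2r121 had 1. The widest was 952 bp, 6.52 kb from Vmn2r121, and the nearest lay 2.27 kb from Olfr1322, with a width of 110 bp.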
